A study of Zea mays with 18 samples.

Results

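RPS10, rps27, rpp2, rpp2a-3 and prpl35-1 are 5 maize genes named for proteins of the ribosome. They were taken by symbol or synonym from the 370 genes that the array annotation names, and 8 of the 7466 measured clones carry them: 1 clone each for RPS10, rps27, rpp2a-3 and prpl35-1, and 4 clones for rpp2. The genes were chosen by their mean ratios in the 3 comparisons of the study and by lines that differ in sign, so the values of these clones are given as a description and without a test.

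A ribosome is built from a small and a large subunit, each made of ribosomal RNA and a set of proteins. RPS10 and rps27 are named for the small subunit proteins S10 and S27; the annotation used here does not say in which compartment of the cell they act. The genes rpp2 and rpp2a-3 are named for acidic P2 proteins, which with their P1 partners, and P3 in plants, form the flexible stalk of the large cytosolic subunit, anchored through P0, where elongation factors bind. The name prpl35-1 stands for protein L35 of the plastid ribosome, and in cereal endosperm the plastid becomes the starch-storing amyloplast. Endosperm fills with storage protein made on ribosomes, and opaque2 (o2) encodes a bZIP transcription factor that activates zein and other endosperm genes.

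The study asked how transcript profiles of wild-type and o2 mutant endosperm differ in different genetic backgrounds, using poly(A) RNA from immature endosperm at 14 days after pollination on 2-colour cDNA arrays. The 3 comparisons set wild type against the o2 mutant within the inbred line B46, within the inbred line M14, and between a wild-type pool and an o2 pool of 8 lines (A619, B14A, B45, B46, B57, B66, B73 and M14), here called mixed. Every comparison was run on 3 independent pairs of samples, each on 2 arrays with exchanged dyes, so that 18 arrays gave 9 replicates. The mixed samples are pools that contain both inbred lines, so their values are not the mean of separately measured lines.

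Each replicate value below is the mean of the 2 arrays of a dye swap, as a log ratio of o2 over wild type centred on the array's median. The base of the deposited log is not stated, so values are in log units, and a few are also given as folds under base 2 and under the natural log. A ratio gives no transcript level, so neither the tissue nor the relative abundance of the genes could be checked. In whole endosperm, fewer cells of a type and less RNA per cell cannot be told apart.

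Which way the deposited ratio runs is likely but not settled. The study names wild type first in each comparison, and the table was taken to hold wild type over o2 for all arrays, then reversed. The alternative is that the table holds Cy5 over Cy3, which would turn 1 array of each dye swap; a mean under that reading is called "turned" below. Within a dye swap the array values correlated negatively across clones, 9 times of 9, with r from -0.35 to -0.018. Among the 72 pairs of like-labelled arrays of different sample pairs, r ran from -0.34 to 0.44. The lowest was between M14 replicate 1 and mixed replicate 1, with wild type on Cy5. All like-labelled pairs with r below 0 set an inbred line against mixed, so a negative r also occurred outside dye swaps. Within a swap, an o2 effect shared by both arrays gives a positive r under the reading used. Under the alternative reading it gives a negative r. The sign seen within the swaps was thus that of the alternative, and its cause was not tested. Pairs within a comparison and pairs of B46 with M14 had r above 0. Over all clones the turned means correlated at 0.46 between B46 and M14, -0.50 between B46 and mixed and -0.52 between M14 and mixed. Under the reading used these r were 0.30, 0.33 and 0.19. Exchanging the dye labels of the mixed arrays alone would reverse the sign of the turned r with mixed and leave those of the reading used unchanged. Whether the dye labels of mixed are right was not tested. Every turned value of mixed, and every value of mixed given by dye, rests on these labels.

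The o2 transcript itself stood below 0 in 9 of 9 replicates, from -0.84 to -0.058 with a mean of -0.42, and in 6 of 9 when turned (mean -0.084). Both pdk1 and z1C1_12, known targets of o2, were below 0 in 9 of 9 replicates (means -1.07 and -2.25; turned, 7 and 5 of 9, with means of -0.12 and -0.084). All of these genes, o2 included, were looked at in setting the direction, so they are not independent evidence for it.

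The size of the values to be described was modest. Over all 7466 clones the median size of the o2 effect in log units was 0.20 for B46, 0.17 for M14 and 0.16 for mixed, and the median SD over 3 replicates was 0.26, 0.27 and 0.22. With limma, fitted over all clones and adjusted by the Benjamini-Hochberg method, 4.57% of clones were called at 0.05 in B46, 0% in M14, 0% in mixed and 6.91% in the average over the 3 comparisons. Turned, 5 clones were called in B46 and 0 in M14, mixed and the average by limma (1098, 938, 499 and 496 at an unadjusted p under 0.05). The 341 calls in B46 fell to 1 without B46 replicate 1, to 7 without B46 replicate 3, and to 0 with B46 fitted alone (1032 at an unadjusted p under 0.05). For the 3 differences between comparisons 0% were called, with 733, 394 and 376 clones at an unadjusted p under 0.05 for B46 minus M14, B46 minus mixed and M14 minus mixed.

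For RPS10 (LOC541869), the B46 replicates stood at 0.25, 0.061 and 0.52, the M14 replicates at -2.73, 0.25 and 0.010, and the mixed replicates at -0.049, -0.10 and -0.055. All 3 B46 replicates lay above 0 and all 3 mixed replicates below it, and 1 M14 replicate lay far below every other value. The means were 0.28 ± 0.23 in B46, -0.83 ± 1.66 in M14 and -0.068 ± 0.028 in mixed (SD, n = 3 each). The low M14 mean was that of 1 sample pair: without M14 replicate 1 it was 0.13. In that replicate the array with wild type on Cy5 gave -0.54 and the array with o2 on Cy5 gave -4.93. Without the latter array alone, an alternative chosen after seeing the data, the M14 mean was -0.094. Turned by the labelled dyes, the means were 0.21 in B46, 0.90 in M14 and -0.15 in mixed, so the sign in M14 depended both on 1 sample pair and on the reading.

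For rps27 (LOC542617), the B46 replicates stood at 0.073, 0.19 and 0.046, the M14 replicates at -0.092, -0.014 and -0.063, and the mixed replicates at -0.0014, -0.094 and -0.14. B46 lay above 0 throughout, and M14 and mixed lay below 0 throughout, and no value was further from 0 than the highest B46 replicate. The means were 0.10 ± 0.077, -0.056 ± 0.039 and -0.077 ± 0.069 (SD, n = 3 each). On base 2 the B46 mean is a fold of 1.07 and on the natural log 1.11, and the M14 mean is 1.04 or 1.06 in the other direction. The arrays of the mixed swaps disagreed most: those with wild type on Cy5 gave 0.37, 0.13 and 0.26, and those with o2 on Cy5 gave -0.38, -0.31 and -0.53. Turned, mixed therefore became 0.33 ± 0.096 with 3 of 3 replicates above 0, while B46 became -0.074 and M14 -0.092.

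**Figure D1:**
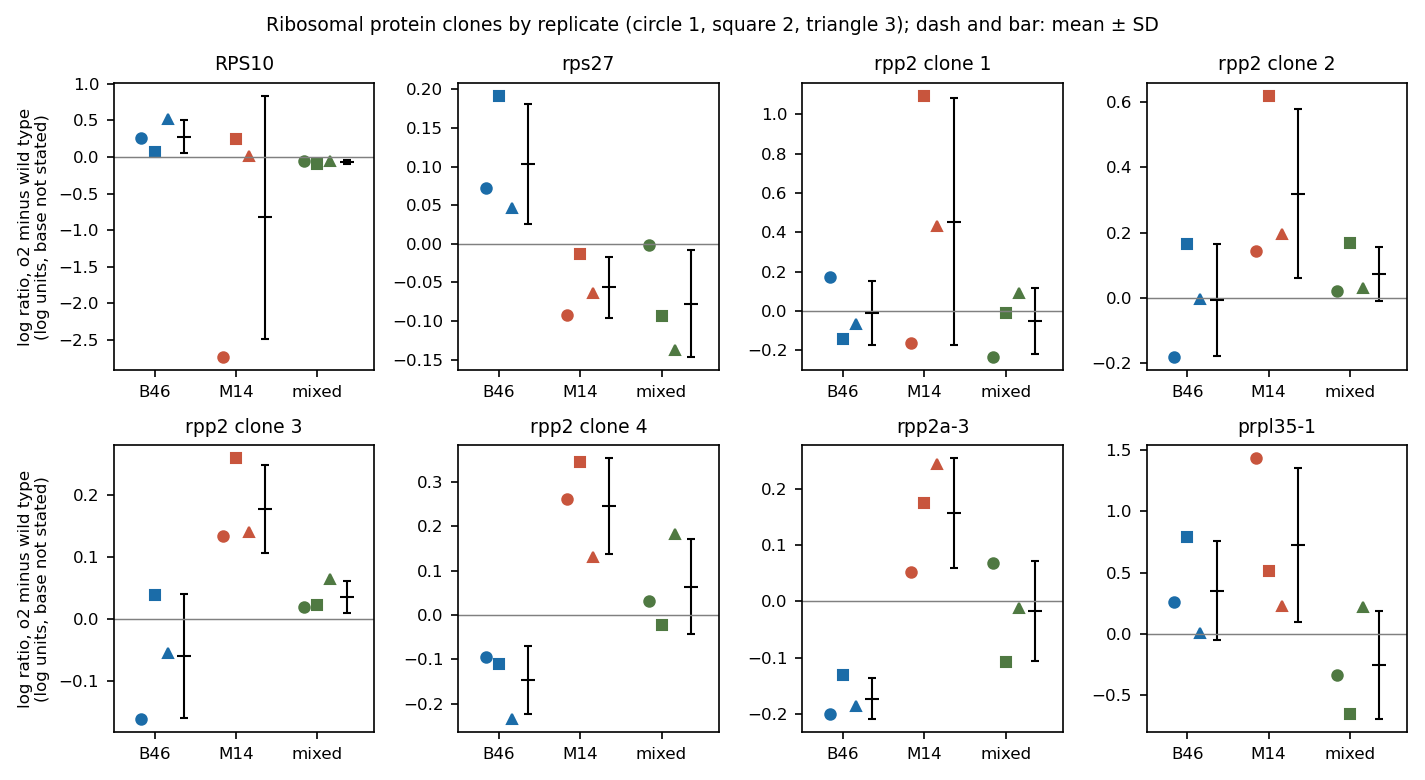
Log ratio of o2 over wild type (log units, base not stated) for each of the 8 clones, with 1 point per replicate (n = 3 per comparison). Panels have their own scales, and dashes with bars are means ± SD; RPS10 in M14 replicate 1 lies at -2.73, and rpp2 clone 4 and rpp2a-3 lie below 0 in every B46 replicate and above 0 in every M14 replicate.

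The 4 clones of rpp2 (LOC542323), numbered in table order, are spots for the same gene on the same arrays, not replicates of a condition. P2 proteins are encoded by several similar genes, and a cDNA spot can bind transcripts of a close copy, so the assignment of signal to rpp2 rather than to another P2 gene is uncertain. Averaged over its clones, rpp2 stood at -0.066, -0.012 and -0.089 in B46, at 0.094, 0.58 and 0.23 in M14, and at -0.041, 0.039 and 0.093 in mixed. All B46 values were below 0 and all M14 values above 0, without overlap, and the mixed values lay on both sides. The means were -0.056 ± 0.040 in B46, 0.30 ± 0.25 in M14 and 0.031 ± 0.067 in mixed (SD, n = 3 each). Turned, they were 0.063, 0.035 and -0.017, and the separation of B46 from M14 was not seen.

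Clone by clone, the M14 means of rpp2 were 0.45 ± 0.63, 0.32 ± 0.26, 0.18 ± 0.071 and 0.25 ± 0.11 for clones 1 to 4, all above 0. The B46 means were -0.010 ± 0.16, -0.0069 ± 0.17, -0.059 ± 0.10 and -0.15 ± 0.077, all below 0, with the first 3 smaller than their SD. The mixed means were -0.050 ± 0.17, 0.073 ± 0.082, 0.036 ± 0.025 and 0.064 ± 0.11, with clone 1 alone below 0. Between the highest and lowest clone the means ranged over 0.14 in B46, 0.28 in M14 and 0.12 in mixed. Of the other 5 genes with 4 clones, TCTP had ranges of 0.11 to 0.17, and tua4, grp1, bt1 and eno1 had wider ones, from 0.26 to 1.75. Turned, the clone means in M14 were 0.26, -0.057, -0.070 and 0.0089, and those in B46 were 0.22, 0.036, -0.042 and 0.041.

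Of the 4 clones, clone 1 had the largest SD in M14 and in mixed. In M14 its replicates stood at -0.16, 1.09 and 0.43, in B46 at 0.17, -0.14 and -0.064, and in mixed at -0.23, -0.011 and 0.093. Every comparison held both signs, and its mean changed sign without replicate 2 or 3 in B46 and without replicate 1 in mixed. Clone 2 stood at 0.14, 0.62 and 0.20 in M14, at -0.18, 0.16 and -0.0027 in B46, and at 0.020, 0.17 and 0.032 in mixed. Its M14 and mixed replicates were all above 0, and its B46 mean changed sign without replicate 1. Clone 3 stood at 0.13, 0.26 and 0.14 in M14, at -0.16, 0.039 and -0.054 in B46, and at 0.020, 0.023 and 0.065 in mixed. Its M14 replicates overlapped with neither B46 nor mixed.

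Clone 4 had the smallest median gap between dye-swap arrays of the 8 clones. Its replicates stood at -0.095, -0.11 and -0.24 in B46, at 0.26, 0.34 and 0.13 in M14, and at 0.032, -0.023 and 0.18 in mixed. Every B46 replicate was below 0 and every M14 replicate above it, and the same held on each array taken alone: the 6 B46 arrays lay between -0.25 and -0.017 and the 6 M14 arrays between 0.12 and 0.39. The distance of an array from the mean of its swap had a median of 0.042 over the replicates of this clone, against 0.24 over all clones. The difference of the means, B46 minus M14, was -0.39, from a B46 mean that is a fold of 1.11 below wild type on base 2 (1.16 on the natural log) and an M14 mean that is 1.19 above (1.28). Turned, the means were 0.041 in B46, 0.0089 in M14 and -0.081 in mixed. In mixed the arrays of a swap differed in sign in 2 of 3 replicates, most in replicate 3 (-0.11 and 0.48).

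For rpp2a-3 (LOC542338), the replicates stood at -0.20, -0.13 and -0.19 in B46, at 0.052, 0.18 and 0.24 in M14, and at 0.069, -0.11 and -0.011 in mixed. As for rpp2 clone 4, every B46 replicate was below 0 and every M14 replicate above it, and mixed held both signs. The means were -0.17 ± 0.037, 0.16 ± 0.097 and -0.017 ± 0.088 (SD, n = 3 each), and the mixed mean became 0.029 without replicate 2. The B46 minus M14 difference was -0.33. Turned, B46 and M14 both had a mean of 0.063 and mixed had -0.038, and the difference was -0.00042. Whether this clone and the rpp2 clones share signal was not tested, since no sequences were compared, and the array annotation does not settle it.

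**Figure D2:**
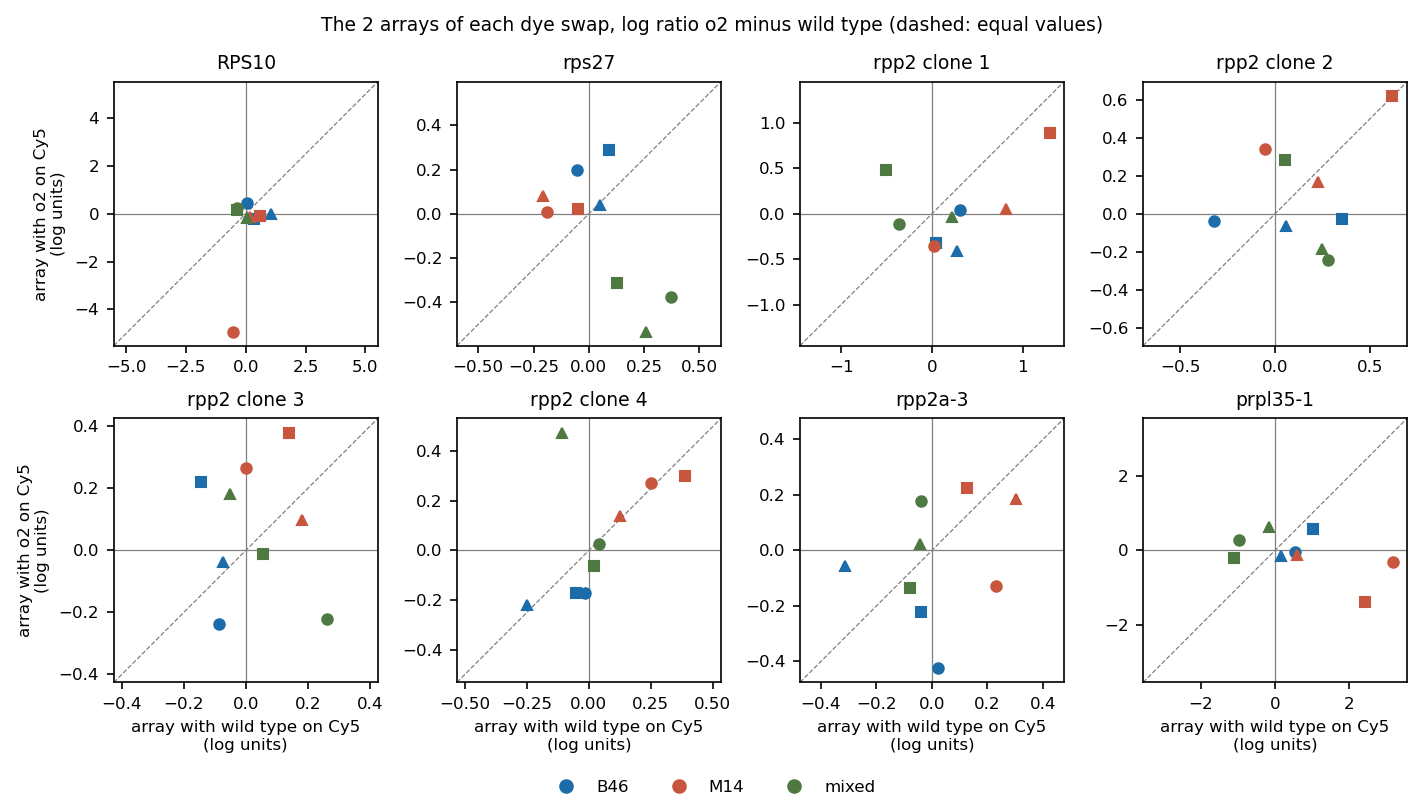
Log ratio of o2 over wild type on the array with wild type on Cy5 against that on the array with o2 on Cy5, for the 8 clones in 9 replicates (log units). Axes differ between panels, colours mark the comparison and symbols the replicate, and the dashed line marks equal values; 31 of 72 points have the same sign on both, and rpp2 clone 4 has 7 of 9.

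For prpl35-1 (LOC542046), the replicates stood at 0.26, 0.79 and 0.0077 in B46, at 1.43, 0.51 and 0.23 in M14, and at -0.34, -0.65 and 0.22 in mixed. All 6 replicates of the inbred lines were above 0, and 2 of 3 mixed replicates were below it. The means were 0.35 ± 0.40, 0.72 ± 0.63 and -0.26 ± 0.44 (SD, n = 3 each), so the SD was larger than the mean in B46 and mixed. M14 and mixed did not overlap, with a difference of 0.98. The M14 swaps disagreed in sign in all 3 pairs: the arrays with wild type on Cy5 gave 3.17, 2.42 and 0.59, and those with o2 on Cy5 gave -0.30, -1.39 and -0.13. Turned, the means were 0.22 in B46, 1.33 ± 0.85 in M14 and -0.49 ± 0.12 in mixed, with all 6 inbred replicates above 0 and all 3 mixed replicates below. Of the 5 genes, only prpl35-1 had the same sign of the mean under both readings in every comparison; over all 8 clones, 10 of the 24 means changed sign when turned. Its signs in M14 and mixed were those of the arrays with wild type on Cy5 (means 2.06 and -0.75), and the arrays with o2 on Cy5 gave -0.61 and 0.24.

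Across the 8 clones, B46 and M14 replicates did not overlap for 4 (rps27, rpp2 clones 3 and 4, and rpp2a-3), B46 and mixed for 4 (RPS10, rps27, rpp2 clone 4 and rpp2a-3), and M14 and mixed for 2 (rpp2 clone 3 and prpl35-1). Over all clones, 17.1%, 13.5% and 12.9% did not overlap in these pairs. Signs opposed in every replicate of B46 and M14 for 3 clones. Of these, rps27 was above 0 in B46 and below 0 in M14, as were 2.34% of all clones, and rpp2 clone 4 and rpp2a-3 ran the other way, as did 1.7%. RPS10 and rps27 were above 0 in every B46 replicate and below 0 in every mixed replicate, as were 1.11% of all clones. The genes were chosen for differences of this kind, so nothing is read from these counts beside the shares of all clones. Turned, 1, 2 and 4 of the 8 clones did not overlap between B46 and M14, B46 and mixed, and M14 and mixed, against 12.4%, 24.2% and 27.6% of all clones.

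Over the 72 dye swaps of the 8 clones, 31 had the same sign on both arrays, or 43.1%, against 45.2% over all clones. The count was 13 of 24 in B46, 13 of 24 in M14 and 5 of 24 in mixed. The share over all clones was not computed by comparison, so these counts are not read as particular to the 8 clones. The rpp2 clones among them are spots of the same gene on the same arrays. By clone it was 7 of 9 for rpp2 clone 4, 5 of 9 for rpp2 clone 3 and rpp2a-3, 4 of 9 for rpp2 clones 1 and 2, and 2 of 9 for RPS10, rps27 and prpl35-1. The median over all clones was 4 of 9. Most replicate values of RPS10, rps27 and prpl35-1 were thus means of arrays with opposite signs.

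**Figure D3:**
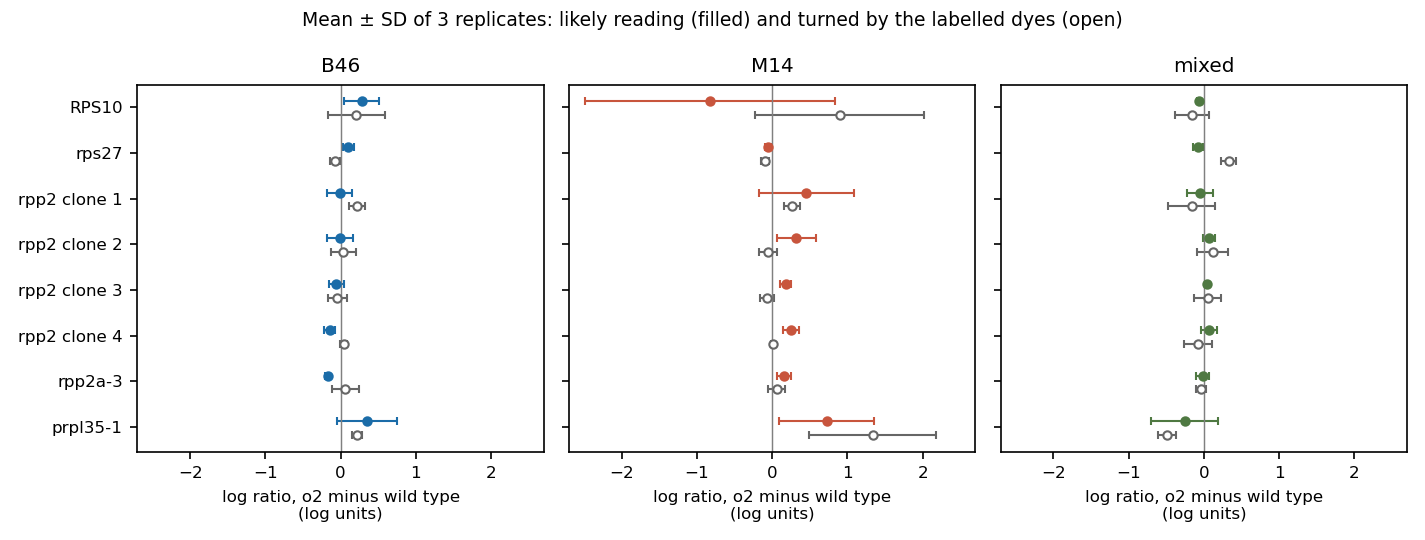
Mean log ratio of o2 over wild type (log units) of each clone in B46, M14 and mixed under the reading used and turned by the labelled dyes, with SD bars over n = 3 replicates. The separation of B46 and M14 for rpp2 clone 4 and rpp2a-3 is seen under the reading used and not when turned. For prpl35-1, M14 is above 0 and mixed below 0 under both, but both readings are made from the same arrays. Its arrays with o2 on Cy5 alone gave -0.61 in M14 and 0.24 in mixed.

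The rpp2 clones and rpp2a-3 had r above 0 with each other over the 9 replicates, which include the differences between comparisons that the genes were chosen by. Between rpp2 clones Pearson's r lay between 0.56 (clones 1 and 4) and 0.90 (clones 2 and 3), and between rpp2 clones and rpp2a-3 between 0.54 and 0.83. These are descriptions over n = 9 points that share arrays, and the difference between comparisons enters them. As deviations from the comparison means, r between rpp2 clones ran from 0.24 (clones 2 and 4) to 0.86 (clones 2 and 3). With rpp2a-3 it was then 0.25, 0.13, 0.29 and -0.057 for rpp2 clones 1 to 4. RPS10 and prpl35-1 stood at r = -0.65, which was 0.30 without M14 replicate 1. The clone of rps27 had r between -0.60 and -0.13 with the rpp2 clones, and -0.47 with rpp2a-3. As deviations from the comparison means these r were above 0 throughout, at 0.081, 0.51, 0.50 and 0.082 with rpp2 clones 1 to 4 and 0.56 with rpp2a-3.

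**Figure D4:**
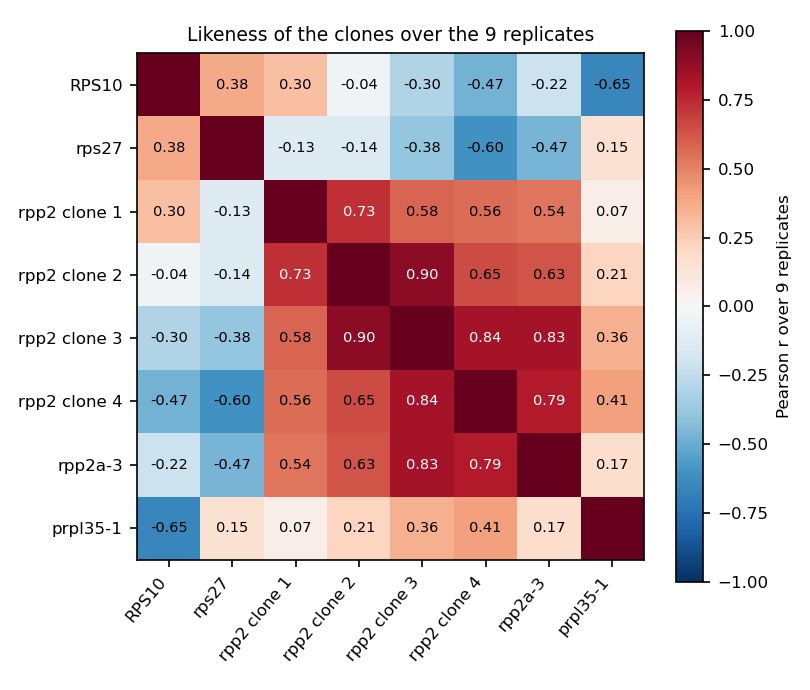
Pearson's r between the 8 clones over the 9 replicate values of the log ratio, as a colour scale from -1 to 1. The block of rpp2 clones and rpp2a-3 holds values of 0.54 and above, and RPS10 and prpl35-1 hold -0.65. The differences between comparisons, by which the genes were chosen, enter these r.

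Among the other named clones, those with the most similar pattern over the 9 replicates differed between the genes. For RPS10 they were LOC541695 (r = 0.96), an1 clone 1 (0.88) and b-70 (0.88), but without M14 replicate 1 these were 0.44, -0.041 and 0.49. For rps27 they were elfa5 clone 2 (0.86), which is named for a translation elongation factor, NRP1 clone 1 (0.84) and L-FNRII (0.83). The closest to rpp2 clone 1 were G2-like1 (0.95), CYTMDH (0.93) and hon101 clone 1 (0.91), and to clone 2 bt1 clone 4 (0.83), nfd106 (0.79) and a2 (0.79). For rpp2 clone 3 they were dad1 (0.84), rpp2a-3 (0.83) and nfd106 (0.82), and for clone 4 dad1 (0.90), LOC541999 (0.89) and nfd106 (0.88). The closest to rpp2a-3 were AR6 clone 2 (0.94), LOC541999 (0.90) and gst18 clone 2 (0.89). For prpl35-1 they were LOC732827 clone 2 (0.89), CCD (0.86) and PER2 (0.82). Each list is the top 3 of 488 clones (485 for rpp2) with n = 9 replicates, so high values occur among so many clones, and r says nothing of the size of a change.

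The array named 6 further ribosomal protein genes by the same kind of symbol (rpp3, rpp2b, rpl39, rpl30, rps13 and RPL10), on 7 clones. None of the 7 was called by limma in B46, M14, mixed, the average or any difference between comparisons, nor in any alternative fit. At an unadjusted limma p under 0.05 there were 0 of the 7 in B46, 1 in M14, 1 in mixed and 2 in the average. Over all 7466 clones there were 1374, 917, 693 and 1605 in the same order. In B46, 2 of 7 clones stood above 0 with a median of -0.10, in M14 4 of 7 with 0.19, and in mixed 3 of 7 with -0.14. Over all 7466 clones 51.15%, 49.57% and 47.5% stood above 0, with medians of 0.0068, -0.0023 and -0.013. Turned, the medians of the 7 clones were -0.097, -0.053 and 0.020.

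The extremes of this group were as follows. The highest mean in B46 was that of rpp3, the P3 stalk protein gene, at 0.14 ± 0.32 (limma adjusted p = 0.638), and the lowest that of RPL10 clone 2, for a large subunit protein, at -0.26 ± 0.31 (adjusted p = 0.776). In M14 RPL10 clone 2 was the highest at 0.40 ± 0.39 (limma adjusted p = 0.715) and rps13, for a small subunit protein, the lowest at -0.084 ± 0.11 (adjusted p = 0.766). In mixed, rpp2b, a further P2 gene, was the highest at 0.25 ± 0.36 (limma adjusted p = 0.802) and RPL10 clone 1 the lowest at -1.23 ± 1.11 (adjusted p = 0.311). All of these are means ± SD over n = 3 replicates, and none was told apart from 0 after adjustment. The limma p rests on a spread shared over all 9 replicates, not on the SD given beside it. Before adjustment, RPL10 clone 1 in mixed had a limma p of 0.0079. The RPL10 clones stood 0.90 apart in mixed. Turned, the extremes were mostly other clones: rpl39 (0.079) and rpp2b (-1.07) in B46, RPL10 clone 2 (0.28) and rpp2b (-1.41) in M14, and RPL10 clone 1 (1.36) and RPL10 clone 2 (-0.54) in mixed.

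B46 lay below M14 for all 7 of these clones, by 0.043 to 0.66, without a call, and turned for 4 of 7. Of all 489 named clones, 222 had B46 below M14. RP-P0, introduced below, had B46 above M14 by 0.11. The stalk genes were set side by side after their values were seen. In M14 the means were 0.30 ± 0.25 for rpp2, 0.16 ± 0.097 for rpp2a-3, 0.19 ± 0.52 for rpp2b, 0.19 ± 0.17 for rpp3 and 0.086 ± 0.29 (SD, n = 3 each) for RP-P0, the gene of the stalk's base, whose symbol the list had missed. In B46 they were -0.056 ± 0.040, -0.17 ± 0.037, -0.10 ± 0.52, 0.14 ± 0.32 and 0.19 ± 0.22 in the same order. The B46 signs of rpp2b and rpp3 were each set by 1 replicate: rpp2b had 2 of 3 replicates above 0 and 1 at -0.71, and rpp3 had 1 of 3 above 0, at 0.50. Turned, the means in this order were 0.035, 0.063, -1.41, -0.068 and 0.016 in M14 and 0.063, 0.063, -1.07, -0.015 and 0.10 in B46. The ranking of the genes was then not that of the reading used. The sign changed for rpp2b and rpp3 in M14 and for rpp2, rpp2a-3 and rpp3 in B46, and held for the others.

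**Figure D5:**
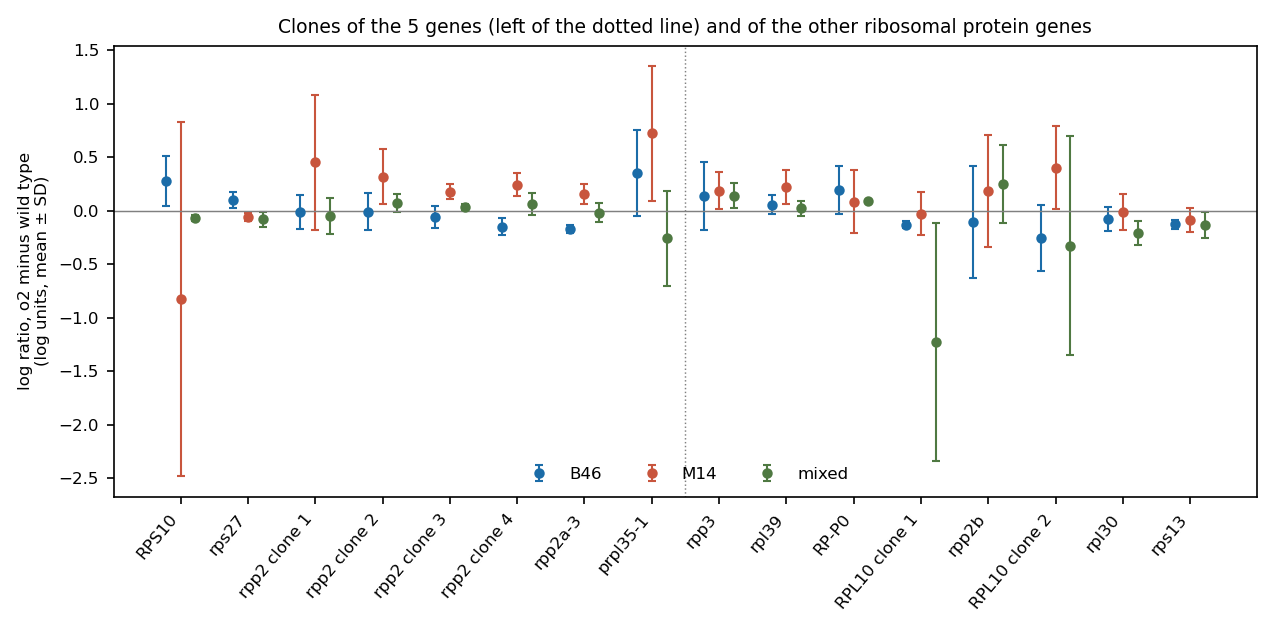
Mean log ratio of o2 over wild type (log units) with SD bars over n = 3 replicates for the clones of all ribosomal protein genes named on the array, in B46, M14 and mixed. The M14 mean is above 0 for 6 of the 8 clones left of the dotted line and 5 of 8 right of it, and RPL10 clone 1 in mixed has the lowest mean, -1.23.

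Over all 11 ribosomal protein genes, the 5 chosen ones included, the median of the gene means was -0.056 in B46, 0.19 in M14 and -0.068 in mixed, with 5, 7 and 4 genes above 0. The B46 median was 0.0015 once RP-P0 was added, an alternative chosen after seeing the data, and turned the medians were -0.015, 0.035 and -0.017. Factors of translation, which work on the ribosome, were named for 8 genes on 12 clones. Of these clones 11 stood above 0 in B46, 8 in M14 and 11 in mixed, with medians of 0.23, 0.13 and 0.12. Over all clones 51.15%, 49.57% and 47.5% stood above 0 in the same order. Turned, 5, 5 and 7 of the 12 clones stood above 0, with medians of -0.0069, -0.021 and 0.058. Both clones of elfa5, an elongation factor gene, were higher in o2 in the average over comparisons, by 0.22 ± 0.052 and 0.21 ± 0.051 (SE; limma adjusted p = 0.0497 and 0.0490), above 0 in 9 and 8 of 9 replicates. These calls were near the threshold: in 17 alternative fits the clones were called in 3 and 4, with adjusted p from 0.0316 to 0.892 and from 0.0343 to 0.887. Turned, the averages were 0.023 and 0.029. The other 10 clones were not called, and none of the 12 was called within a comparison or in a difference. Over all clones 6.91% were called in the average.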

How the data were processed

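The 18 arrays were spotted cDNA arrays scanned in Cy5 and Cy3 and read with ImaGene, per the labels; for background correction, normalization and log base, the sources used here give nothing. The authors deposited 1 signed log ratio per array and row, for 16560 rows. Of these 14932 held values, each clone stood on a pair of identical rows, and 7466 clones remained. Scanner intensities and background checks were not used here; the number of arrays limits the precision.

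Each array was centred on its median (deposited medians ran from -0.22 to 0.11), multiplied by -1, and averaged with its dye-swap partner, giving 3 independent replicates per comparison. All clones were fitted with limma 3.58.1 in R 4.3.3 (lmFit, eBayes, 1 mean per comparison, Benjamini-Hochberg adjustment, threshold 0.05), after a test of the fit on simulated data. The spread of a clone was estimated over all 9 replicates of the 3 comparisons. Per the series' notes the sample pairs were independent.

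The platform annotation named 489 clones with 370 genes, of which 360 matched a RefSeq gene table (Zm-B73-REFERENCE-NAM-5.0); the 5 genes were found through its synonyms. No coordinates or sequences are given: the array names no build, and sequences were not used here. The other genes named are, by a set rule, those called on the ribosomal protein list, its highest and lowest means per comparison, and the 3 most similar clones of each gene; the stalk genes set side by side and the translation factors' elfa5 fall outside it. On each array 1 value was shared by 33 to 202 clones, none of them among the 8. The genes, lists and alternatives were chosen with earlier results of these data known.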

Additional observations from a re-analysis of the deposited data

Results flagged for a closer look

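Some clones stood on opposite sides of 0 in every replicate of both comparisons, by the mean difference given here; for the 5 chosen genes these differences were not tested. B46 minus M14 was -0.39 for rpp2 clone 4, -0.36 for the mean of the rpp2 clones, -0.33 for rpp2a-3 and 0.16 for rps27. B46 minus mixed was 0.35 for RPS10 and 0.18 for rps27. Turned by the labelled dyes these differences were 0.032, 0.028, -0.00042, 0.019, 0.36 and -0.40 in the same order. Among the other ribosomal protein genes, RPL10 clone 2 had B46 minus M14 at -0.66 (limma adjusted p = 0.671), with B46 at -0.26 and M14 at 0.40. Turned, its means were -0.43 in B46 and 0.28 in M14. The other clone of this gene, RPL10 clone 1, stood at -0.13 in B46 and -0.027 in M14, a difference of -0.10. Over all clones, 1.7% had every B46 replicate below 0 and every M14 replicate above it.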

How the results depend on the processing

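The number of arrays and the unstated log base limit all values. In B46, 341 clones were called, against 5 when turned by the labelled dyes, 97 on the arrays with o2 on Cy5 alone, 159 with eBayes' trend and robust options, 0 when B46 was fitted alone (1032 at an unadjusted p under 0.05), and 1 to 314 with a replicate left out; it was 1 without B46 replicate 1, 7 without B46 replicate 3 and 205 without B46 replicate 2. In M14 none was called by limma (917 at an unadjusted p under 0.05), against 40 with arrays scaled to the same spread, 1 on the arrays with wild type on Cy5 alone, and 0 to 44 with a replicate left out (44 without M14 replicate 3). In mixed none was called (693 unadjusted), against 58 with scaling and 0 to 2 with a replicate left out. In the average 516 were called, against 0 when turned (496 unadjusted), 205 on the arrays with o2 on Cy5 alone, 249 with the trend and robust options, and 298 to 499 with a replicate left out. The differences B46 minus M14 and B46 minus mixed had 0 calls, against 0 to 24 and 0 to 17 with a replicate left out (the highest without B46 replicate 2). The median over the ribosomal protein genes in B46, -0.056, was 0.026 with scaling, -0.015 turned, 0.0075 with wild type on Cy5 alone, 0.071 with o2 on Cy5 alone, -0.010 with the first clone of each gene and 0.0015 with RP-P0. In M14, 0.19, it was 0.035 turned, 0.12 with wild type on Cy5 alone and 0.094 with o2 on Cy5 alone; in mixed, -0.068, it was -0.012 without centring and -0.017 turned. The causes were not tested. Of the 24 clone means of the 5 genes, 4 changed sign without centring, 0 with scaling, 10 turned, 5 with wild type on Cy5 alone and 8 with o2 on Cy5 alone. With the replicate number as a block, all 3 differences had 0 calls (678, 415 and 363 at an unadjusted p under 0.05); same-numbered replicates correlated between -0.034 and 0.10 and so do not show a pairing. The planned description of protein and promoter sequences was not run.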
